A study of Homo sapiens with 18 samples.

Results

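The APOBEC3 family comprises 7 genes, APOBEC3A, APOBEC3B, APOBEC3C, APOBEC3D, APOBEC3F, APOBEC3G and APOBEC3H, and all of them were found by gene name among the 26475 genes with deposited expression levels. The family was picked because APOBEC3C was higher under olaparib than under vehicle after 7 days, so the comparison of olaparib with vehicle is given here as a description without a test. Levels were measured by RNA-Seq of poly(A) RNA in 18 libraries of C4-2B, a castration-resistant prostate cancer cell line labelled wild type in the sample records. After 48 hours, 3 libraries treated with DMSO vehicle were compared with 3 libraries treated with 0.1 μM VIC-1911, an inhibitor of the mitotic kinase AURKA. After 7 days, 3 libraries each were available for DMSO vehicle, 0.1 μM VIC-1911, 1 μM olaparib, and both drugs at these doses. Olaparib inhibits PARP1, an enzyme of DNA repair. All groups share the same cell line, and the records do not say whether the 3 libraries of a group came from separate cultures, so the p-values measure the spread between these libraries. The study asked how AURKA inhibition and PARP inhibition act on gene expression, alone and together.

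APOBEC3 enzymes convert cytosine to uracil in single-stranded DNA. They restrict retroviruses and transposable elements, and APOBEC3A and APOBEC3B are also known for mutating the DNA of tumour cells. The uracil they leave is removed by the glycosylase UNG and repaired by the base excision pathway. Transcription of the family is known to respond to interferon and NF-kB, and that of APOBEC3B also to the E2F, MYBL2 and DREAM regulators of the cell cycle. These regulators and partners were therefore followed beside the family.

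The 7 genes lie head to tail on the plus strand of chromosome 22 of GRCh38 (GENCODE annotation), within 151 kb from position 38952741 to position 39104067, between CBX6 and CBX7. Each is annotated as protein coding. The annotation behind the counts is not given in the sources used here, so which exons they include is not known. APOBEC3B runs from 38982347 to 38992804 in 7 merged exons, APOBEC3C from 39014257 to 39020352 in 4, APOBEC3F from 39040604 to 39055972 in 8, and APOBEC3H from 39097224 to 39104067 in 6. Close copies matter for reading the values, because a read that matches several members may be split, lost or misplaced, and the handling of such reads is not given in the sources used here. Of all 75-base windows of the annotated transcripts, 20.7% of those of APOBEC3B occur unchanged in another member, with 11.4% in APOBEC3A, 6.37% in APOBEC3D and 2.9% in APOBEC3F. For APOBEC3F the share is 7.41%. APOBEC3C shares 0.272% of its windows, all with APOBEC3F, and APOBEC3H shares 0%. At a window of 50 bases the shares are 27.5% for APOBEC3B, 1.23% for APOBEC3C and 0% for APOBEC3H. Thus APOBEC3B is the detected member whose counts are most exposed to copies, and APOBEC3H and APOBEC3C the least. APOBEC3B also overlaps the antisense gene APOBEC3B-AS1 over 244 exonic bases, and APOBEC3C shares 17 exonic bases with a read-through gene, ENSG00000284554, which shares 2104 exonic bases with APOBEC3D. Whether strand was used in counting is not given in the sources used here. Within the shared exonic bases, reads of APOBEC3B and of its antisense partner therefore cannot be told apart.

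The sequence before the start of APOBEC3H is shown because APOBEC3H and APOBEC3C were the members with the largest differences under olaparib, and because it was the member with an entry in the RefSeq promoter table used here (GRCh38.p14). The 230 bases just upstream of the gene, at chr22:39096994-39097223 on the plus strand, are printed 5′ to 3′ in lower case, with no capitals since no searched motif matched.
APOBEC3H upstream: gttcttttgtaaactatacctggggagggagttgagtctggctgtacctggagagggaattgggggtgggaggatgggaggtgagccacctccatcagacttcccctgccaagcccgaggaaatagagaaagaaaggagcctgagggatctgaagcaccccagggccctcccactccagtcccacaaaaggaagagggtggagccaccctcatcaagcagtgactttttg
Motifs were searched on both strands of the promoter window, which also takes in the first bases of the gene. Among them were the core of the interferon-stimulated response element, GAAANNGAAA, and the NF-kB site. APOBEC3H held 0 matches of either, and among all 35116 tabulated promoters, 3.57% and 5.91% held at least 1 match. This says only that these letters are not in this window.

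Libraries of 48 hours held 3245273 to 7184420 counts in total, and those of 7 days held 4967931 (olaparib replicate 1) to 19684208, which limits what can be seen of the rarer members. The prostate epithelial markers KLK3 and HOXB13 were at 1599 to 2697 and 69.5 to 108 FPKM in the 7-day libraries, where FPKM stands for fragments scaled to the length of the gene and the size of the library. Of 12 leukocyte and stroma markers, 10 were under 1 FPKM in all libraries, and CD3E and CD2, which define T cells, were at 0 throughout. CD68 and COL1A1 made up most of the list, and its summed level after 7 days was 8.17 to 8.92 FPKM under vehicle, 9.22 to 9.38 under VIC-1911, 10.3 to 12.9 under olaparib and 11.6 to 12.9 under both drugs. This sum was higher in the groups in which APOBEC3C and APOBEC3H were higher, and its part in their levels was not tested. In the numbering of the libraries, the 7-day vehicle and VIC-1911 libraries form one block and the olaparib and both-drug libraries another. VIC-1911 against vehicle and both drugs against olaparib were thus each compared within a block, whereas in every comparison of olaparib or both drugs with vehicle or VIC-1911 the block and olaparib cannot be told apart.

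APOBEC3B, a nuclear enzyme with a pair of deaminase domains, was the main APOBEC3 transcript of these cells in every library. Its level was 13.0, 12.1 and 13.8 FPKM in the 3 vehicle libraries of 48 hours and 9.28, 10.5 and 10.7 FPKM in the 3 VIC-1911 libraries of the same time. After 7 days it was 4.32, 3.35 and 3.02 FPKM under vehicle and 9.97, 11.4 and 9.83 FPKM under VIC-1911. Under olaparib the 3 libraries had 8.04, 9.57 and 8.70 FPKM, and under both drugs they had 6.01, 5.72 and 6.21 FPKM. The 4 groups of 7 days did not overlap, and their order was vehicle, both drugs, olaparib and VIC-1911, with olaparib (8.77 ± 0.769 FPKM, SD, n = 3) and VIC-1911 (10.4 ± 0.874 FPKM, SD, n = 3) as the closest neighbours. The tables of the 48-hour and 7-day libraries were made separately, so the level of 13.0 ± 0.841 FPKM (SD, n = 3) under vehicle after 48 hours and that of 3.56 ± 0.673 FPKM (SD, n = 3) after 7 days stand side by side without a test.

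APOBEC3C, a widely expressed enzyme with a single deaminase domain, was at 0 counts in all 6 libraries of 48 hours. A count of 0 allows up to 3 counts, which would correspond to 0.288 to 0.638 FPKM in these libraries, by counting error alone. After 7 days it had 1, 0 and 0 counts under vehicle and 0, 4 and 2 counts under VIC-1911, at most 0.224 FPKM. Under olaparib it had 10, 23 and 32 counts, or 1.38, 0.937 and 1.12 FPKM. With both drugs the counts were 28, 18 and 24, or 1.10, 1.07 and 1.09 FPKM. After 7 days all 6 libraries with olaparib lay above all 6 without it, and the olaparib and both-drug groups overlapped. The olaparib library with the fewest counts had the highest level of the 3, from 10 counts.

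APOBEC3H, a further enzyme with a single domain and activity against retroviruses, was low without olaparib and rested on few counts there. Its 3 vehicle libraries of 48 hours had 1, 2 and 1 counts (0.188, 0.263 and 0.260 FPKM), and the 3 VIC-1911 libraries had 7, 4 and 8 counts (0.613, 0.563 and 0.853 FPKM). After 7 days it had 5, 2 and 0 counts under vehicle (0.229, 0.0771 and 0 FPKM) and 8, 11 and 4 counts under VIC-1911 (0.553, 0.599 and 0.175 FPKM). Olaparib libraries held 9, 25 and 36 counts (1.20, 0.988 and 1.23 FPKM), and libraries with both drugs held 37, 30 and 30 counts (1.40, 1.73 and 1.32 FPKM). As for APOBEC3C, the 6 libraries with olaparib lay above the other 6 of 7 days. The vehicle and VIC-1911 groups overlapped after 7 days, whereas the both-drug libraries all lay above the olaparib libraries.

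APOBEC3F, a cytoplasmic restriction factor of retroviruses with a pair of deaminase domains, varied least of the 4 detected members. It was at 0.538 ± 0.101 FPKM under vehicle and 0.505 ± 0.0186 FPKM under VIC-1911 (SD, n = 3 each) after 48 hours. After 7 days the libraries had 0.738, 0.657 and 0.924 FPKM under vehicle, 0.503, 0.631 and 0.577 under VIC-1911, 0.819, 0.898 and 0.688 under olaparib, and 0.802, 0.762 and 0.969 under both drugs. The VIC-1911 libraries were the lowest of the 12, and the other 3 groups overlapped. APOBEC3D and APOBEC3G, close relatives of APOBEC3F in structure and antiviral activity, were barely detected: APOBEC3D had 1 count, in both-drug replicate 1, and APOBEC3G had 1 count each in VIC-1911 replicates 2 and 3 of 7 days. APOBEC3A, an interferon-induced enzyme of myeloid cells, was listed at 0 FPKM in all 18 libraries. Of its 75-base windows, 16.8% occur in other members, mostly in APOBEC3B.

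**Figure D1:**
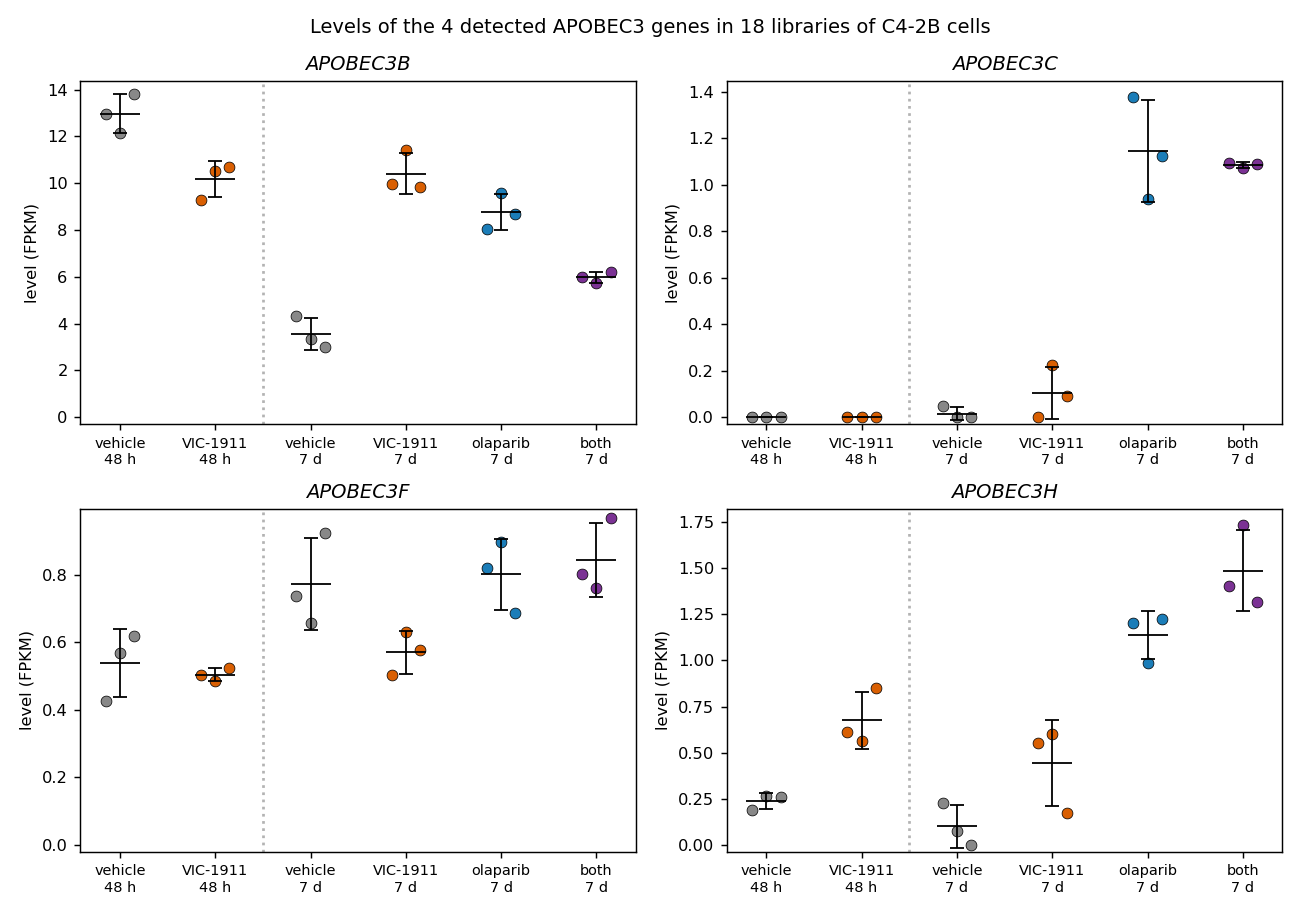
Level in FPKM of the 4 detected APOBEC3 genes in 6 groups, where each circle is a library, the long bar is the group mean and the whiskers are the SD of 3 libraries; "both" is VIC-1911 with olaparib. APOBEC3B falls into 4 separate groups at 7 d, and APOBEC3C and APOBEC3H are higher in the 6 libraries with olaparib than in the other 6 of 7 d.

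On the FPKM scale, which corrects for gene length, the order of the members changed with treatment. The lengths behind the FPKM were 1448 bases for APOBEC3C and 6505 for APOBEC3F, against 2644 and 5215 annotated exonic bases. The order of these members and the shares below thus depend on the lengths used. By counts, APOBEC3F (216) stood above APOBEC3C (65) under olaparib. With vehicle for 7 days, APOBEC3B (3.56 FPKM) was followed by APOBEC3F (0.773), APOBEC3H (0.102) and APOBEC3C (0.0157), and the last pair overlapped. With olaparib, APOBEC3B (8.77) was followed by APOBEC3C (1.15) and APOBEC3H (1.14), which did not differ beyond their spread, and by APOBEC3F (0.802). With both drugs the order was APOBEC3B (5.98), APOBEC3H (1.49), APOBEC3C (1.09) and APOBEC3F (0.844), with no overlap between neighbours. APOBEC3B made up 93.6% to 95.5% of the summed FPKM of the family in the vehicle libraries of 48 hours, 76.6% to 82% under vehicle and 88.5% to 91.9% under VIC-1911 after 7 days. Its share was 70.3% to 77.2% under olaparib and 61.6% to 64.8% under both drugs. In the both-drug libraries APOBEC3H contributed 13.8% to 18.7% and APOBEC3C 11.3% to 11.7%. The summed level was 3.95 to 5.33 FPKM under vehicle, 10.7 to 12.9 under VIC-1911, 11.4 to 12.4 under olaparib and 9.29 to 9.59 under both drugs, so all treated libraries of 7 days lay above the vehicle libraries. In bulk RNA, fewer cells that express a gene and less RNA per cell cannot be told apart.

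The first comparison asked what VIC-1911 did within 48 hours, in libraries that the choice of the family did not use. Neither of the members with enough counts for edgeR's test passed it, and APOBEC3B alone was under 0.05 before adjustment. For APOBEC3B the log2 fold change was -0.28, with a standard error (SE) of 0.113 (edgeR adjusted p = 0.0873), with all 3 VIC-1911 libraries below all 3 vehicle libraries. For APOBEC3F it was -0.03 (SE 0.280, edgeR adjusted p = 0.966). Here and below, a gene passes at an adjusted p-value under 0.05 over all genes tested, and 14.7% of all tested genes passed in this comparison. The FPKM values of APOBEC3B differed more than its counts: relative to the median gene, the reads behind its FPKM per count were 0.947 to 1.04 in the vehicle libraries and 0.929 to 0.944 in the VIC-1911 libraries. A limma fit on log2(FPKM + 0.1) gave -0.35 for APOBEC3B (adjusted p = 0.0162), which passes, and DESeq2 gave -0.28 (adjusted p = 0.337). APOBEC3H, with 19 counts under VIC-1911 and 4 under vehicle, had too few counts for the test. Its ratio of counts per total was 3.02 (95% interval 1.005 to 12.2, exact conditional binomial method, counting error only), and its 3 VIC-1911 libraries lay above the 3 vehicle libraries.

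After 7 days, APOBEC3B was higher under VIC-1911 than under vehicle, with a log2 fold change of 1.47 (SE 0.116, edgeR adjusted p = 9.01e-12) and no overlap between the libraries. Of all tested genes, 26.7% passed as higher and 25.7% as lower, and 3.46% were higher by at least 2-fold, as APOBEC3B was. APOBEC3H had a log2 fold change of 1.69 (SE 0.628, edgeR adjusted p = 0.0246), but this rests on 23 counts against 7, and the libraries overlapped. Its adjusted p was 0.134 without vehicle replicate 2, 0.0633 without vehicle replicate 3, 0.0748 without VIC-1911 replicate 1 and 0.127 without VIC-1911 replicate 2, and without vehicle replicate 1 the log2 fold change was 2.71. APOBEC3H entered the fit only through the counts of its olaparib and both-drug libraries. APOBEC3F had a log2 fold change of -0.41 (SE 0.185, edgeR adjusted p = 0.0607), and passed as lower with upper-quartile normalization (adjusted p = 0.0490) and without vehicle replicate 2 (adjusted p = 0.0336). For APOBEC3C, chosen on a comparison that shares these 3 vehicle libraries, 6 counts stood against 1, a ratio of 6.14 (95% interval 0.745 to 282, counting error only).

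The fitted difference of APOBEC3B between VIC-1911 and vehicle was thus below 0 after 48 hours and above 0 after 7 days. Its mean level under VIC-1911 was 10.2 FPKM after 48 hours and 10.4 after 7 days, against 13.0 and 3.56 under vehicle. The change of sign thus goes with a lower vehicle level after 7 days, and levels were not tested between the times. The difference between the effects of VIC-1911 on APOBEC3B after 7 days and after 48 hours, each taken against the vehicle of its own time, was 1.73 on the log2 scale (SE 0.169, edgeR adjusted p = 1.34e-11), in a test that 28.8% of all genes passed. APOBEC3F had a difference of -0.41 (edgeR adjusted p = 0.418). APOBEC3C and APOBEC3H had too few counts for this test in the libraries without olaparib at both times.

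Under olaparib, the comparison by which the family was picked, the values are a description. APOBEC3C had 65 counts in the 3 olaparib libraries against 1 in the 3 vehicle libraries, a ratio of 61.5 per total count (95% interval 10.7 to 2466, counting error only). APOBEC3H had 70 counts against 7, a ratio of 9.46 (95% interval 4.36 to 24.4), and a fitted log2 fold change of 3.14 (SE 0.500). For APOBEC3B the log2 fold change was 1.27 (SE 0.118), and for APOBEC3F it was 0.08 (SE 0.173). Over all genes, 54% passed in this comparison, from which nothing is read about the family.

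Both drugs together were compared with vehicle in the same way, with the same 3 vehicle libraries. APOBEC3B rose, with a log2 fold change of 0.71 (SE 0.123, edgeR adjusted p = 1.29e-05). APOBEC3H had a fitted value of 3.54 (SE 0.468). Without vehicle replicate 1, which held 5 of the 7 vehicle counts of APOBEC3H, its log2 fold change was 4.56, and without vehicle replicate 2 it was 3.17. Over 15 alternative fits it was 1.18 (limma on log2(FPKM + 1)) to 4.56. APOBEC3H met the count filter only through libraries with olaparib, so its value is a description. APOBEC3F had a log2 fold change of 0.19 (SE 0.168, edgeR adjusted p = 0.351). APOBEC3C had 70 counts against 1, a ratio of 63.0 (95% interval 10.9 to 2525, counting error only), given without a test. Of all tested genes, 28.6% passed as higher.

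Olaparib added to VIC-1911 can be read from both drugs against VIC-1911 alone, in libraries that the choice of the family did not use, although this comparison crosses the blocks of library numbers. APOBEC3C and APOBEC3H met the count filter only through libraries with olaparib, where they were high, so a difference was built into their being tested and their values are given as a description. APOBEC3C had a fitted log2 fold change of 3.26 (SE 0.491), with 70 counts against 6, a ratio of 10.3 per total count (95% interval 4.49 to 28.9). Without VIC-1911 replicate 2, which held 4 of the 6 counts, its log2 fold change was 4.19, and without VIC-1911 replicate 1 it was 2.84. Over 15 alternative fits it was 0.921 (limma on log2(FPKM + 1)) to 4.19. APOBEC3H had 1.84 (SE 0.362), and all its both-drug libraries lay above all VIC-1911 libraries. APOBEC3F rose by 0.60 (SE 0.176, edgeR adjusted p = 0.00640), but its adjusted p was 0.0524 without both-drug replicate 3. APOBEC3B fell, with a log2 fold change of -0.75 (SE 0.104, edgeR adjusted p = 8.06e-07), and its both-drug libraries all lay below the VIC-1911 libraries. Of all tested genes, 20.7% passed as higher and 22.2% as lower in this comparison, and 2.23% were higher by at least 2-fold.

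VIC-1911 added to olaparib was read from both drugs against olaparib alone, within a block of library numbers. APOBEC3B fell, with a log2 fold change of -0.56 (SE 0.106, edgeR adjusted p = 5.54e-04), where 4.55% of all tested genes passed as higher and 6.95% as lower. APOBEC3C, whose olaparib libraries were used to choose the family, had a ratio of 1.03 (95% interval 0.721 to 1.46, counting error only), so a difference smaller than this interval spans was not detectable at this depth. APOBEC3H had a log2 fold change of 0.40 (SE 0.290, edgeR adjusted p = 0.428) and a ratio of 1.32 (95% interval 0.960 to 1.82). APOBEC3F had a log2 fold change of 0.11 (SE 0.164, edgeR adjusted p = 0.734).

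APOBEC3B was thus higher with VIC-1911 than without it in the absence of olaparib, and lower in its presence. The difference between these effects was -2.02 on the log2 scale (SE 0.157, edgeR adjusted p = 1.09e-11), in a test that 44% of all genes passed and that was added after the levels of APOBEC3B had been seen. The same difference was 0.53 for APOBEC3F (edgeR adjusted p = 0.0858). It passed in 1 of 20 alternative fits, without vehicle replicate 2 (0.66, edgeR adjusted p = 0.0480). For APOBEC3H, which met the count filter only through libraries with olaparib, the fitted difference was -1.30 and is a description. It was -2.32 without vehicle replicate 1 and -1.77 without VIC-1911 replicate 3, but -0.93 without vehicle replicate 2 and -0.94 without VIC-1911 replicate 2. Over 20 alternative fits it was -2.32 to -0.165, the last from limma on log2(FPKM + 1).

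**Figure D2:**
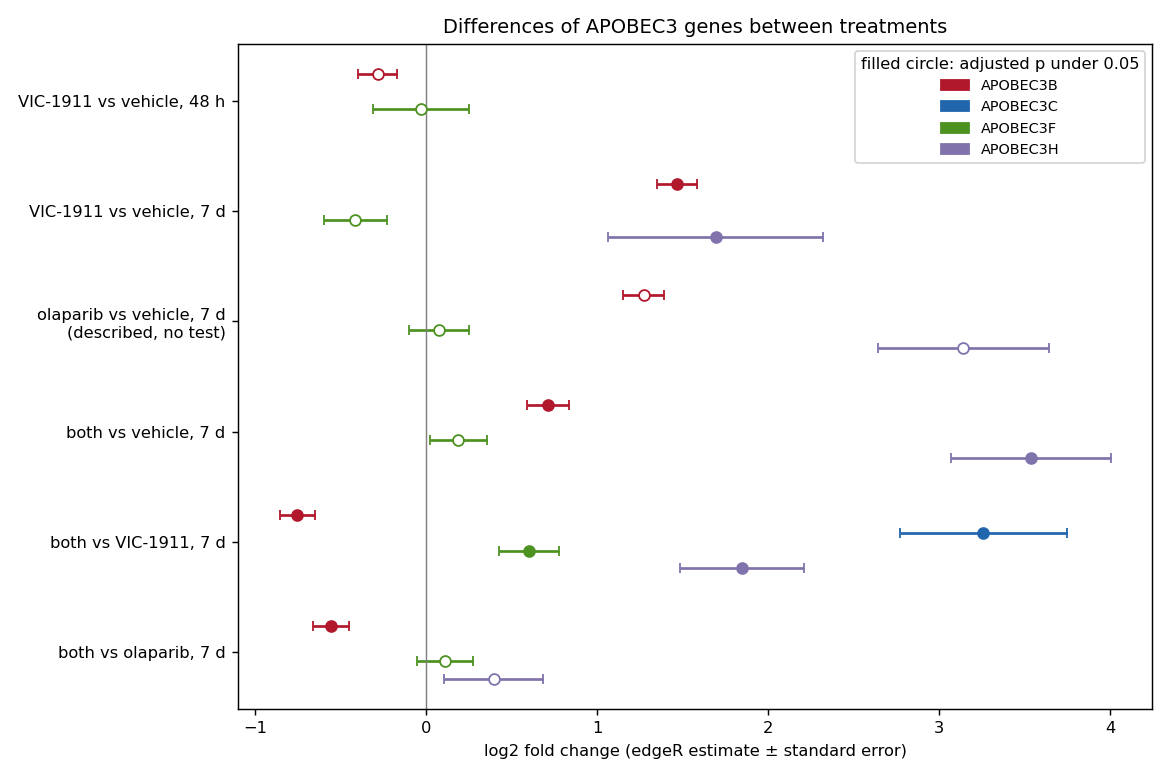
Log2 fold change (edgeR estimate, whiskers are the standard error) of the APOBEC3 genes in 6 comparisons, with filled circles for an adjusted p-value under 0.05 and open circles otherwise; olaparib against vehicle is shown without a test, and APOBEC3C only where its choice did not use the libraries. APOBEC3B lies to the right of 0 against vehicle at 7 d and to the left of 0 for both drugs against either drug, whereas APOBEC3H lies to the right in all comparisons shown. The filled circles of APOBEC3C and APOBEC3H are no support, since both met the count filter only through libraries with olaparib.

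The genes whose log2 library-scaled counts followed each member most closely over the 12 libraries of 7 days were listed by Pearson correlation, given as a description, since groups of 3 libraries with the same treatment set much of it. For APOBEC3B these were POLD1 (r = 0.984), XRCC2 (0.982) and LETM1 (0.982), and POLD1 was at 10.9, 21.4, 19.5 and 16.2 FPKM under vehicle, VIC-1911, olaparib and both drugs. For APOBEC3C they were FAM84A (0.976), PLK3 (0.975) and CEL (0.973), with CEL at 0.586, 1.25, 4.71 and 4.54 FPKM in the same order. For APOBEC3H they were ZFYVE21 (0.976), LINC01021 (0.964) and EDN2 (0.960), with LINC01021 at 5.33, 8.25, 12.4 and 13.9 FPKM. For APOBEC3F they were ADAM1A (0.938), CD27-AS1 (0.924) and HOGA1 (0.916). Between members, the correlation was 0.888 for APOBEC3C with APOBEC3H and 0.374 for APOBEC3B with APOBEC3C. APOBEC3C was picked for its level under olaparib, and APOBEC3C and APOBEC3H met the count filter only through libraries with olaparib. Those libraries also form a block of library numbers, so a high correlation between the pair was partly built in.

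Of the regulators known for APOBEC3B, MYBL2, which activates genes of the G2 and M phases, was at 55.5 ± 1.06 FPKM under vehicle and 41.9 ± 0.560 under VIC-1911 after 48 hours (SD, n = 3 each). After 7 days MYBL2 was at 12.4 ± 2.41 FPKM under vehicle, 38.0 ± 1.35 under VIC-1911, 23.1 ± 2.27 under olaparib and 12.8 ± 0.435 under both drugs (SD, n = 3 each). Its log2 fold change under VIC-1911 was -0.39 after 48 hours (edgeR adjusted p = 6.61e-07) and 1.54 after 7 days (edgeR adjusted p = 4.07e-16), and that of both drugs against VIC-1911 was -1.53 (edgeR adjusted p = 1.49e-15). FOXM1, a transcription factor of the same phases, and E2F1, which activates genes of the S phase, passed in the same directions, with log2 fold changes of 1.22 and 1.04 under VIC-1911 after 7 days and of -1.42 and -0.75 for both drugs against VIC-1911. Of 16 genes of the DREAM, MYBL2 and E2F regulators, 12 passed as higher and 2 as lower under VIC-1911 after 7 days (median log2 fold change 0.34, against -0.005 over all genes). The list was not split into activating and repressing genes, so its counts give no direction of activity. Other listed genes had other orders. RBL2, 1 of the 2 lower, was at 29.8, 21.0, 21.3 and 20.1 FPKM under vehicle, VIC-1911, olaparib and both drugs. TFDP2 was at 6.62, 8.53, 10.2 and 10.5 FPKM in the same order. With both drugs against VIC-1911, 1 passed as higher and 10 as lower (median -0.32), and against olaparib 6 passed as lower and 10 did not pass. Over all tested genes, 26.7% passed as higher and 25.7% as lower under VIC-1911 after 7 days. With both drugs these shares were 20.7% and 22.2% against VIC-1911, and 4.55% and 6.95% against olaparib.

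**Figure D3:**
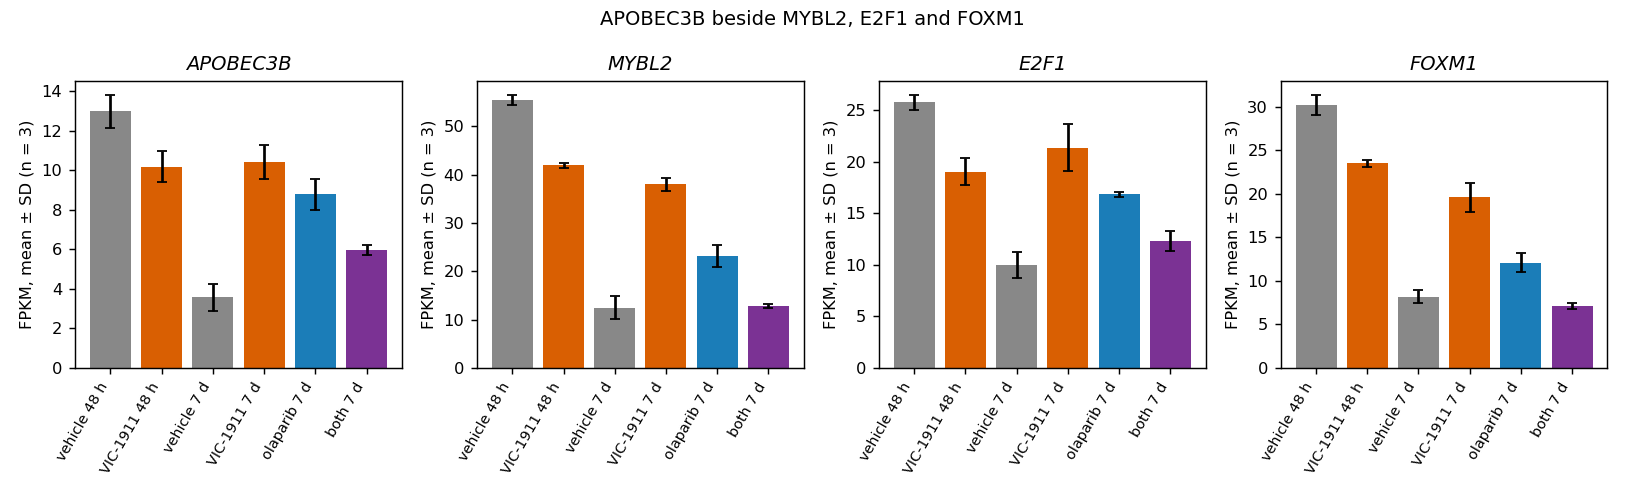
Mean FPKM of APOBEC3B and of 3 regulators of the cell cycle in 6 groups, with whiskers for the SD of 3 libraries; each panel has its own scale. In all 4 panels VIC-1911 is below vehicle at 48 h and above it at 7 d, and both drugs together are below VIC-1911 alone. The panels part for both drugs against vehicle at 7 d: APOBEC3B (5.98 against 3.56) and E2F1 (12.3 against 9.99) are higher, MYBL2 (12.8 against 12.4) overlaps vehicle, and FOXM1 (7.13 against 8.19) is lower. Of the 16 listed regulators, 2 passed as lower under VIC-1911 at 7 d. Among those not drawn, the highest mean at 7 d was under vehicle for RBL2 and with both drugs for TFDP2.

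CDKN1A, which encodes the cell cycle inhibitor p21, was at 25.9 FPKM under vehicle, 96.1 under VIC-1911, 216 under olaparib and 258 under both drugs after 7 days, the same order of groups as for APOBEC3H. With both drugs against VIC-1911, CDKN1A and the ubiquitin ligase MDM2 rose, with log2 fold changes of 1.47 and 0.76 (edgeR adjusted p = 6.85e-20 and 3.04e-14). Of 10 NF-kB subunits and inhibitors, 3 passed as higher under VIC-1911 after 7 days and 5 with both drugs against VIC-1911, and the other 7 and 5 did not pass. Over all tested genes the shares that passed as higher were 26.7% and 20.7%, so the count under VIC-1911 was near the background. Of the NF-kB genes, NFKBIA, the inhibitor of NF-kB, and RELB, a subunit, had log2 fold changes of 0.79 and 1.20 with both drugs against VIC-1911 (edgeR adjusted p = 1.19e-09 and 5.84e-04).

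Interferon-stimulated genes, with which APOBEC3 genes are often induced, moved both ways. Of 33 tested genes of a list of 41, 16 passed as higher and 5 as lower under VIC-1911 after 7 days (median log2 fold change 0.27), 16 and 3 with both drugs against VIC-1911 (median 0.30), and 9 and 1 with both drugs against olaparib (median 0.23). Over all tested genes, the shares higher and lower in these comparisons were 26.7% and 25.7%, 20.7% and 22.2%, and 4.55% and 6.95%. After 48 hours with VIC-1911, 1 of 23 passed as higher, which was ISG15, where 14.7% of all tested genes passed in either direction. The transcription factor IRF1 and the antiviral gene IFIT2 had log2 fold changes of 1.87 and 1.31 with both drugs against VIC-1911 (edgeR adjusted p = 1.61e-07 and 9.85e-06), whereas OAS3, a sensor of double-stranded RNA, had -1.07 (edgeR adjusted p = 3.26e-10). Of 9 tested retroviral restriction factors outside the family, 3 passed as higher and 1 as lower with both drugs against VIC-1911, where 20.7% and 22.2% of all tested genes did. TRIM22, which restricts viral transcription, had a log2 fold change of 2.36 and BST2, which tethers virions, had 0.88 (edgeR adjusted p = 2.81e-10 and 5.79e-05). APOBEC2, the one related deaminase outside the family with enough counts after 7 days, had a log2 fold change of -1.17 with both drugs against vehicle (edgeR adjusted p = 0.0418) and of -0.38 against VIC-1911 (edgeR adjusted p = 0.612).

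Downstream of the enzymes, 17 genes of the repair of uracil and abasic sites were tested. After 48 hours with VIC-1911, 1 passed as higher and 3 as lower. Under VIC-1911 after 7 days 10 passed as higher and 1 as lower (median log2 fold change 0.31). With both drugs, 2 passed as higher and 11 as lower against VIC-1911 (median -0.19), and 1 and 6 against olaparib (median -0.14). Over all tested genes, 14.7% passed in either direction after 48 hours, and 26.7% as higher and 25.7% as lower under VIC-1911 after 7 days. With both drugs the shares higher and lower were 20.7% and 22.2% against VIC-1911, and 4.55% and 6.95% against olaparib. FEN1, the flap nuclease of long-patch repair, had a log2 fold change of 1.30 under VIC-1911 after 7 days and of -0.84 with both drugs against VIC-1911 (edgeR adjusted p = 2.51e-15 and 2.51e-11). UNG, the uracil glycosylase, had -0.49 with both drugs against VIC-1911 and -0.27 against olaparib (edgeR adjusted p = 7.11e-08 and 0.00284). Of 6 genes of proteins that bind single-stranded DNA, the substrate of the enzymes, 5 passed as higher under VIC-1911 after 7 days, while 1 passed as higher and 3 as lower with both drugs against VIC-1911, among them RPA1 (-0.30, edgeR adjusted p = 1.78e-06).

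**Figure D4:**
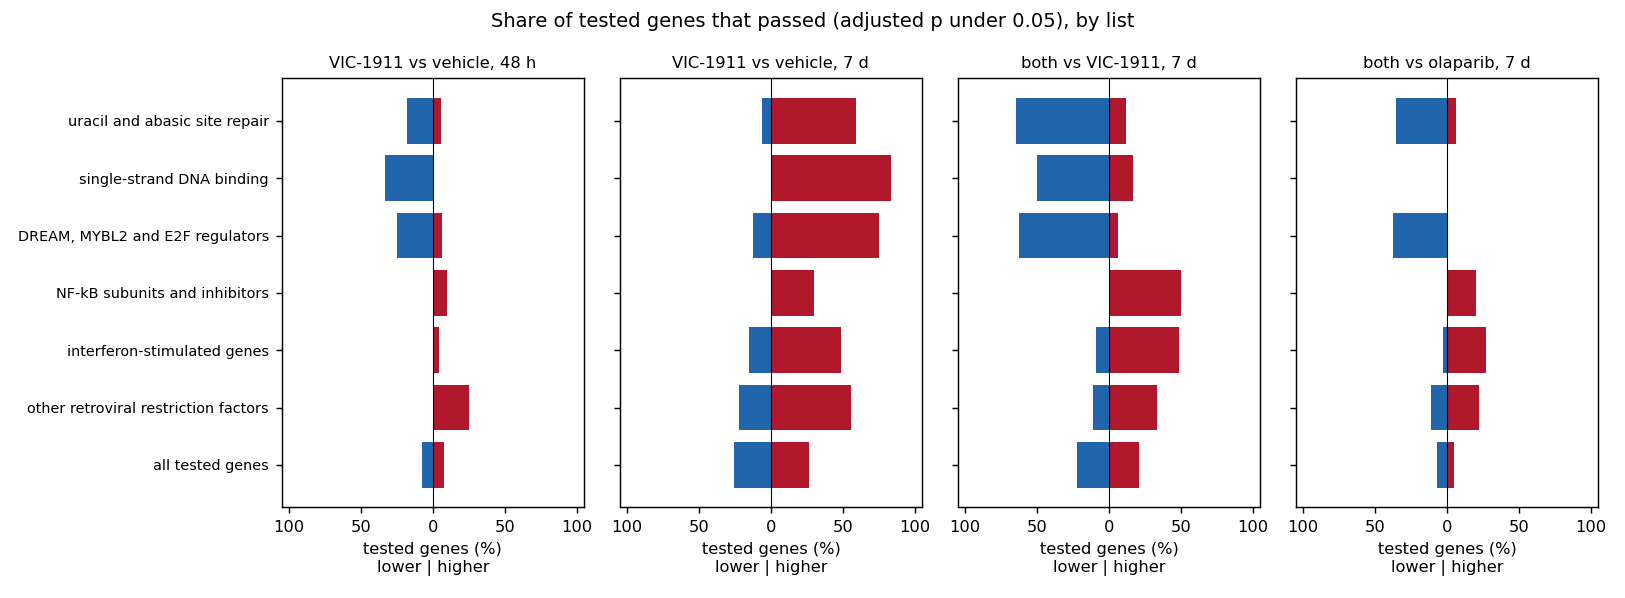
Percent of the tested genes of each list, and of all tested genes, that passed at an adjusted p-value under 0.05 in 4 comparisons, with genes higher in the first-named group to the right in red and lower ones to the left in blue. Repair and cell cycle lists are mostly to the right for VIC-1911 at 7 d and mostly to the left for both drugs against VIC-1911, and the NF-kB list has no bar to the left.

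The neighbours of the cluster on chromosome 22 were measured to see how far the differences reached. The nearest upstream neighbour CBX6 and the nearest downstream neighbour CBX7, both of the Polycomb group, had log2 fold changes of 0.32 and -0.37 under VIC-1911 after 7 days (edgeR adjusted p = 5.85e-07 and 1.95e-05). With both drugs against VIC-1911, CBX6 had 0.03 (edgeR adjusted p = 0.583) and CBX7 had 0.24 (edgeR adjusted p = 0.00401). Of 10 flanking genes, 1 passed as higher and 6 as lower under VIC-1911 after 7 days, 4 and 2 with both drugs against VIC-1911, and 2 as higher with both drugs against olaparib. Over all tested genes, the shares higher and lower were 26.7% and 25.7%, 20.7% and 22.2%, and 4.55% and 6.95% in the same order. The largest of these differences with both drugs against VIC-1911 was that of NPTXR, with 0.59 (edgeR adjusted p = 1.12e-08), below those of APOBEC3C and APOBEC3H and near that of APOBEC3F. Since APOBEC3C and APOBEC3H met the count filter only through libraries with olaparib, their place above the flanking genes is a description.

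**Figure D5:**
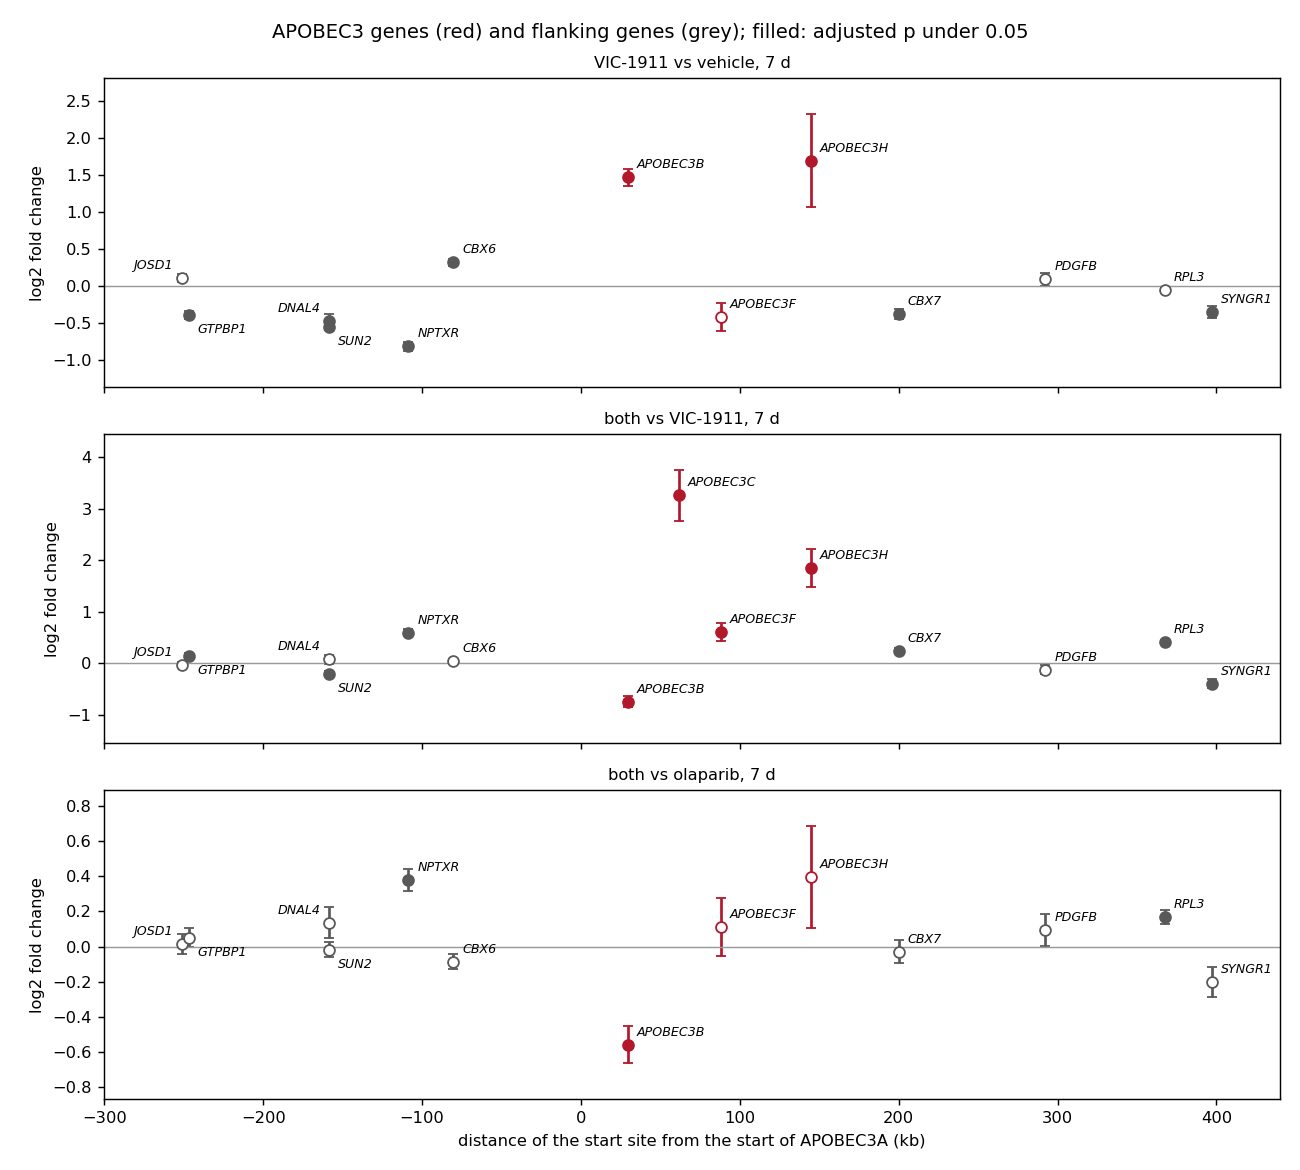
Log2 fold change (edgeR estimate, whiskers are the standard error) of APOBEC3 genes (red) and 10 flanking genes (grey) against the distance in kb of each start site from that of APOBEC3A, with filled circles for an adjusted p-value under 0.05. For both drugs against VIC-1911, APOBEC3C and APOBEC3H stand above every flanking gene and APOBEC3B below every one of them, and APOBEC3C and APOBEC3H met the count filter only through libraries with olaparib.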

How the data were processed

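Reads had been trimmed by the authors (Trimmomatic) and mapped to GRCh38 by STAR (version 2.6.0 in the submitters' processing notes), and they deposited raw counts per gene and FPKM values, the latter from an in-house script, in separate tables for 48 hours and 7 days. APOBEC3 genes were matched by name: 4 of 7 are in the 48-hour and 6 of 7 in the 7-day count table. The 7-day FPKM follow from the counts (largest relative deviation 0.032 over 12165 genes), whereas those of 48 hours do not follow exactly.

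Counts were fitted with edgeR 4.0.16 (R 4.3.3, TMM, glmQLFit and glmQLFTest) for genes reaching 10 counts in 3 or more libraries: 12241 genes in 6 libraries of 48 hours, 14409 genes in 12 libraries of 7 days, and 13832 genes in the 12 vehicle and VIC-1911 libraries of both times. P-values were adjusted by Benjamini-Hochberg over all genes of a comparison. Tested were APOBEC3B and APOBEC3F at both times and APOBEC3C and APOBEC3H after 7 days. Ratios of summed counts have exact conditional binomial intervals of 95%. Intervals and floors of 3 counts cover counting error only. The code was tested on simulated counts. The alternatives were DESeq2 1.42.0 and its size factors, upper-quartile and library-size scaling, no filter, limma 3.58.1 on FPKM, the replicate number as a block, the compared groups alone, and each library left out. All members are named, with listed genes that passed (up to 4 a list and comparison by adjusted p), flanking genes, and the 3 genes most correlated with each member. The members and lists were chosen with earlier results of these data known. Some listed genes are not reported here.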

Additional observations from a re-analysis of the deposited data

Results flagged for a closer look

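The effect of VIC-1911 on APOBEC3B differed between the time points, by 1.73 on the log2 scale (7 days less 48 hours, edgeR adjusted p = 1.34e-11). It also differed by the presence of olaparib, by -2.02 on the log2 scale (both drugs against olaparib, less VIC-1911 against vehicle, edgeR adjusted p = 1.09e-11). Both differences passed in every alternative fit run, 18 and 20 in number, with ranges of 1.66 to 1.92 and -2.17 to -1.81. The first sets together tables of 2 separate experiments, and the second was tested after the levels had been seen. In the first, the mean level under VIC-1911 was 10.2 FPKM at 48 hours and 10.4 at 7 days, against 13.0 and 3.56 under vehicle.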

How the results depend on the processing

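Of the values followed under the alternatives for single members, APOBEC3B kept its direction in all fits and its call in every comparison of 7 days. The number of members that passed for VIC-1911 at 48 hours was 0 by edgeR and 1 with limma on log2 FPKM at a pseudocount of 0.1 or 1, which is APOBEC3B (-0.32 at the latter, adjusted p = 0.0170). For VIC-1911 at 7 days it was 2, 3 with upper-quartile normalization, where APOBEC3F passes, and 1 with the compared groups alone, where APOBEC3H has too few counts for the filter. With each library left out, the numbers were 0 to 0 and 1 to 2 for VIC-1911 at 48 hours and 7 days, 3 to 3 for both drugs against vehicle, 3 to 4 against VIC-1911, 1 to 1 against olaparib, 1 to 1 for the difference between times and 1 to 2 for the difference between drug effects. In the main fits, 1798 of 12241 tested genes passed for VIC-1911 at 48 hours and 7550 of 14409 at 7 days. For both drugs against vehicle, VIC-1911 and olaparib, 8153, 6177 and 1657 of 14409 passed. The differences between times and between drug effects had 3977 of 13832 and 6333 of 14409. The numbers of members are thus no support by themselves. The numbers for both drugs against vehicle and against VIC-1911 include APOBEC3C and APOBEC3H, whose values there are a description. Those for VIC-1911 at 7 days include APOBEC3H in the main fit and in 10 of 14 alternative fits. They include APOBEC3F in 2 of 15, and APOBEC3C in 1 of 14, without VIC-1911 replicate 1. Those for the difference between drug effects include APOBEC3H in 2 of 20 alternative fits and APOBEC3F in 1. APOBEC3C and APOBEC3H met the count filter only through libraries with olaparib, so their passes are no support. Changes of sign were limited to values near 0 that did not pass. APOBEC3F under VIC-1911 at 48 hours had -0.124 to 0.062 with a library left out, the ends being without vehicle replicates 1 and 2, with 0.000 without vehicle replicate 3 and 0.003 without VIC-1911 replicate 1. For both drugs against olaparib, APOBEC3C had -0.056 and -0.036 with limma at the smaller and larger pseudocount and -0.117 to 0.088 with a library left out, the lowest without olaparib replicate 2 and the highest without olaparib replicate 1. APOBEC3F had -0.026 to 0.239 with a library left out, the lowest without olaparib replicate 3 and the highest without olaparib replicate 2, and -0.003 without both-drug replicate 3. The cause of these changes was not tested.

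Deviations from the group means of libraries with the same replicate number had correlations of -0.003 to 0.127 (median 0.036) at 48 hours. At 7 days these were -0.078 to 0.207 (median 0.012). Libraries with different numbers had -0.094 to 0.061 (median -0.046) and -0.254 to 0.214 (median -0.011). The ranges overlapped, so no clear pairing by number was seen, but 3 libraries a group cannot exclude it. With the replicate number as a block, the numbers of members that passed stayed at 0, 2, 3, 4 and 1, counted in the same way, where 1838, 7647, 8228, 6310 and 1795 of all tested genes passed. APOBEC3C for both drugs against olaparib had -0.002. No other member changed its side of the threshold. The depth limits APOBEC3C and APOBEC3H: at 48 hours they had at most 8 counts in a library.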
